A study of Saccharomyces cerevisiae with 7 samples.

Results

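The 42 genes described here build and attach sugars and lipid anchors in the endoplasmic reticulum (ER) of budding yeast. They were chosen by name from their known functions and matched to the systematic names on the array, and 41 of the 42 were found among the 6225 names measured. GPI15 had no probe under its systematic name, so its level was not analysed here. The genes form 4 groups: 6 protein O-mannosyltransferases, 8 subunits of the oligosaccharyltransferase, 12 enzymes that assemble the N-glycan precursor, and 16 genes of glycosylphosphatidylinositol (GPI) anchor synthesis and transfer, of which 15 were measured.

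Proteins that enter the secretory pathway can be modified in the ER in 3 ways that share a supply of dolichol-linked sugars. The Pmt enzymes transfer mannose from dolichol phosphate mannose to serine and threonine residues. The Alg enzymes assemble a branched oligosaccharide on dolichol, beginning on the cytosolic face of the membrane and finishing in the lumen, and the oligosaccharyltransferase moves it to asparagine residues of proteins entering the lumen. The Gpi enzymes build a glycolipid on phosphatidylinositol, and a transamidase exchanges it for the C-terminal signal of proteins that will be held at the plasma membrane or in the cell wall. Most of these steps are essential in yeast, and many of the products are mannoproteins of the cell wall.

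The samples were cultures of BY4741, a laboratory strain that carries his3Δ1, leu2Δ0, met15Δ0 and ura3Δ0. All 7 carried the multicopy plasmid pTOW40836, which holds URA3 and the weak leu2d allele, and all were grown to log phase in synthetic medium without uracil. SS-GFP carries the signal sequence of a trypanosome procyclin, which directs the protein to the ER, GFP-Deg carries the degron of mouse ornithine decarboxylase, and GFP has no added signal. GFPm3 is a misfolding mutant, MTS-GFP carries the mitochondrial targeting sequence of Mrps12, and NES-GFP carries the nuclear export signal of PKI. The TDH3 promoter drove GFP and GFP-Deg, the HXT7 promoter drove NES-GFP, and the PYK1 promoter drove SS-GFP, GFPm3 and MTS-GFP. The empty vector had no GFP. The paper made these arrays to learn what overproduction of the modified GFPs does to the cell. It chose medium without uracil because growth defects appeared in it.

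Each construct was measured on 1 single-colour array, so no difference between constructs has a replicate check and no p-value is given. A level is the background-corrected brightness of a probe as a percentage of the 75th percentile of its array, averaged over the 7 spots of the probe, and a deviation is its log2 value minus the mean log2 value of the 7 arrays. Levels are relative to the RNA on each array, so a change in total RNA per cell cannot be told apart from none. The 7 deviations of a gene sum to 0, so no array stands free of the other 6. A gene is said to have risen or fallen where it was over 2-fold from its comparator (1 on the log2 scale). The SD between the spots of a probe had a median of 0.06 and a highest value of 0.13 on the log2 scale over the genes described, and it covers measurement within 1 array only. Each of the 41 genes was measured well above background in every array, and none of their spots was saturated. Between 97.0% and 98.9% of the spots of an array were well above background.

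The arrays lay on 2 slides. SS-GFP, GFP-Deg and GFP shared slide 2, while GFPm3, MTS-GFP, NES-GFP and the empty vector shared slide 1. Slide and construct cannot be told apart in a comparison between slides, and that includes SS-GFP against the empty vector. Promoter and fusion cannot be told apart between SS-GFP and the other 2 constructs of its slide.

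From its lowest to its highest array, a gene spanned a median of 0.77 on the log2 scale, against 0.76 for all genes. The span was over 2-fold for 8 of the 41 genes, or 19.5%, against 31.8% of all genes. In at least 1 array, 1 of the 41 was over 2-fold from the mean of the 7 arrays, against 8.96% of all genes, and 8 were over 1.5-fold from it, against 31.7% of all genes. The 1 gene past 2-fold was MCD4, in SS-GFP. Over 1.5-fold above the mean were MCD4, PMT2 and PMT1 in SS-GFP (3.36% of all genes) and ALG13 and OST1 in GFP-Deg (9.46% of all genes). Over 1.5-fold below it were PMT4, ALG7, ALG5 and MCD4 in MTS-GFP (7.74% of all genes) and MCD4 in NES-GFP (4.45% of all genes).

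**Figure D1:**
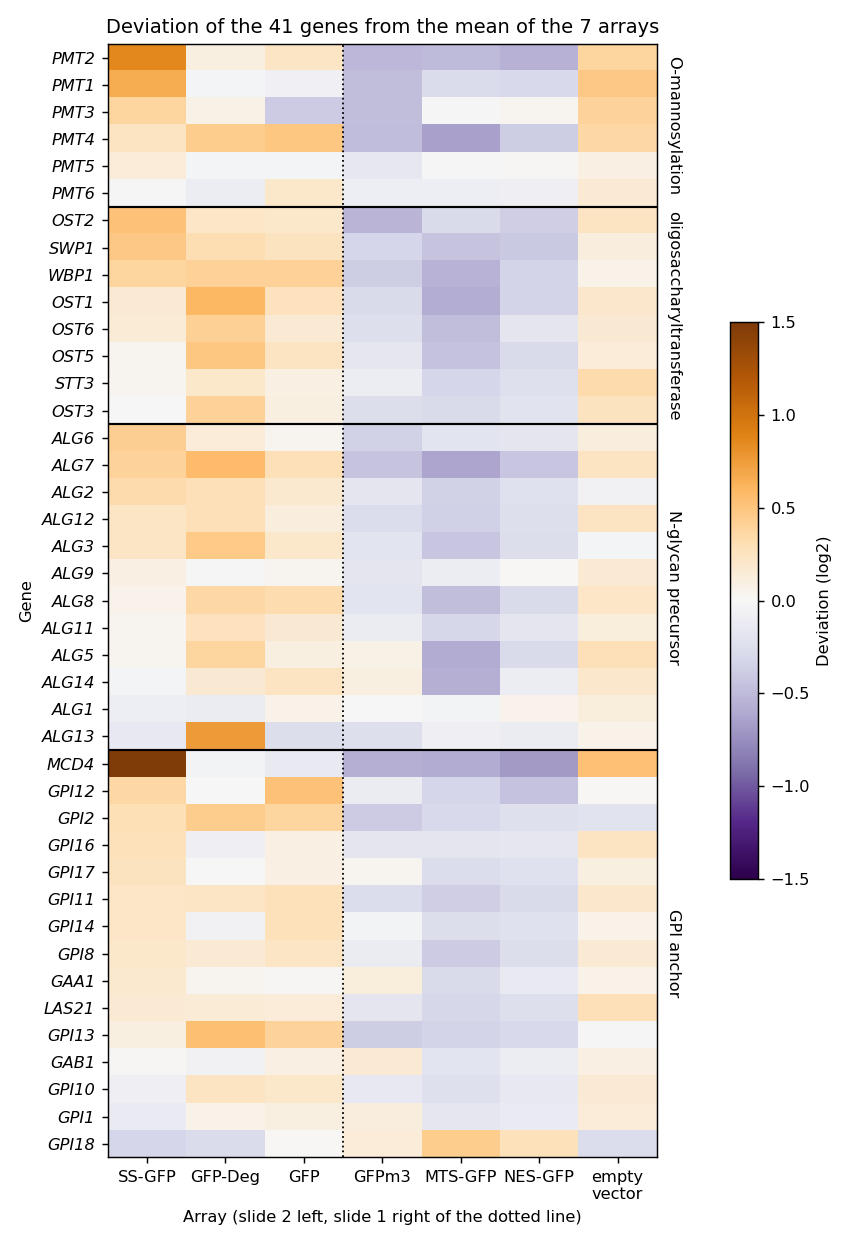
Heat map of the deviation of each of the 41 genes (rows, by group and in order of their deviation in SS-GFP) from the mean of the 7 arrays (columns), on the log2 scale. MCD4 in SS-GFP, at 1.49, is the strongest cell, and the MTS-GFP column is below the mean for every gene but GPI18.

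The side of the mean on which the genes lay differed between arrays. The 41 deviations had a median of 0.18 in SS-GFP, where 33 genes were above the mean, against 46.9% of all genes. In GFP-Deg the median was 0.20 and 29 genes were above the mean (55.2% of all genes). In GFP it was 0.17 and 36 genes were above (53.8% of all genes). Without scaling between arrays 6 genes were above the mean in GFP (18.3% of all genes), so that the count for GFP turns round with the scaling. In these 3 arrays the median over all genes lay between -0.02 and 0.04.

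The other 3 GFP arrays had negative medians. The median was -0.18 in GFPm3, with 34 genes below the mean (45.3% of all genes), and -0.23 in NES-GFP, with 36 below (56% of all genes). It was -0.31 in MTS-GFP, where 40 of the 41 genes were below the mean (55.9% of all genes). The empty vector, on the same slide as these 3 arrays, had a median of 0.16, with 36 genes above the mean (48.6% of all genes). Without scaling between arrays 23 genes in GFPm3 (77.6% of all genes) and 32 in NES-GFP (83.9% of all genes) were above the mean, so that these counts turn round as well. Over all genes the medians of these 4 arrays lay between -0.05 and 0.04.

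**Figure D2:**
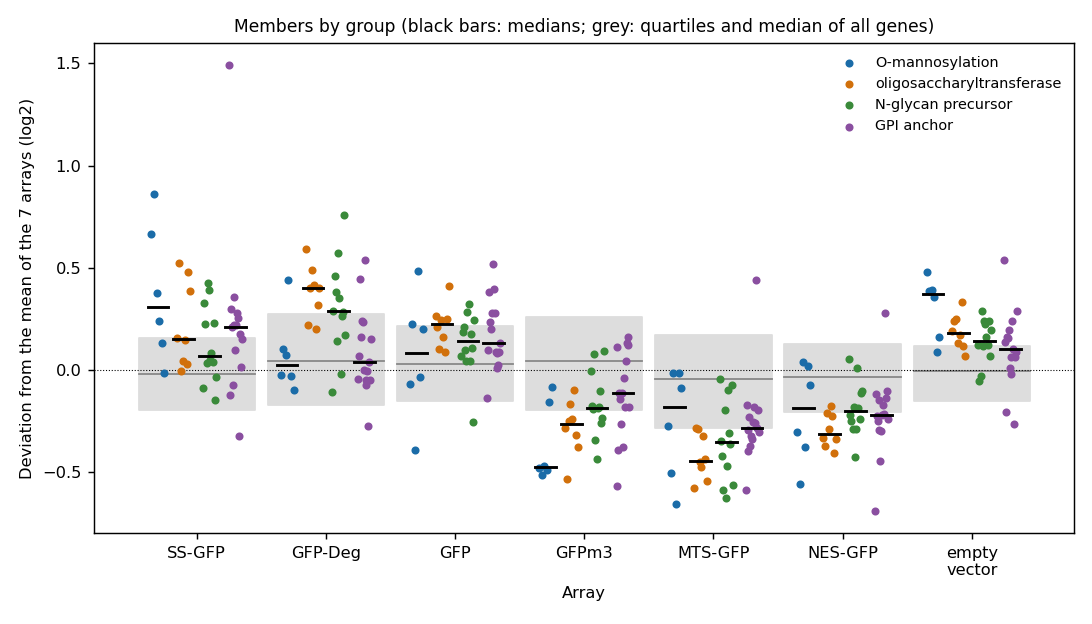
Deviation from the mean of the 7 arrays (log2, vertical axis) of each gene on each array (horizontal axis), in colour by group, with the median of each group as a black bar and the quartiles and median of all genes in grey. In MTS-GFP the medians of the 4 groups lie between -0.18 and -0.44, and in the empty vector between 0.10 and 0.37.

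The O-mannosyltransferases had the highest median of the 4 groups in SS-GFP, 0.31, and also in the empty vector, 0.37. Pmt1 and Pmt2 work as a pair, and their genes had the highest deviations of the group in SS-GFP. PMT2 was at 551% of the 75th percentile in SS-GFP, 325% in GFP-Deg, 354% in GFP, 212% in GFPm3, 214% in MTS-GFP, 206% in NES-GFP and 396% in the empty vector. PMT1 was at 327% in SS-GFP, 202% in GFP-Deg, 197% in GFP, 148% in GFPm3, 170% in MTS-GFP, 167% in NES-GFP and 287% in the empty vector. For both genes SS-GFP was the highest array and the empty vector the next. In SS-GFP, PMT2 was 1.82-fold and PMT1 1.59-fold above the mean of the 7 arrays (deviations of 0.86 and 0.67), short of 2-fold.

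The other Pmt genes followed different orders. PMT3 and PMT5 encode the members of a second pair, and PMT3 was at 71.7% in SS-GFP, 42.1% in GFP and 72.5% in the empty vector, while PMT5 stayed between 37.7% and 45.9% over the 7 arrays. PMT4, whose enzyme pairs with itself, was at 332% in SS-GFP, 381% in GFP-Deg, 392% in GFP, 200.1% in GFPm3, 178% in MTS-GFP, 216% in NES-GFP and 360% in the empty vector. The 3 GFP arrays of slide 1 were the lowest for it. PMT6 had the lowest deviation of the group in SS-GFP, -0.01. It was at 102% in SS-GFP, 96.0% in GFP-Deg, 118% in GFP, 96.9% in GFPm3, 96.6% in MTS-GFP, 97.7% in NES-GFP and 115% in the empty vector, so its 7 arrays lay within 0.30 on the log2 scale. The 6 genes are paralogs, and hybridisation of 1 transcript to the probe of another was not tested.

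The oligosaccharyltransferase genes were highest as a group in GFP-Deg (median deviation 0.40), ahead of GFP (0.23), the empty vector (0.18) and SS-GFP (0.15). They were lowest in MTS-GFP (-0.44), below NES-GFP (-0.31) and GFPm3 (-0.27). STT3 encodes the catalytic subunit. It was at 323% in SS-GFP, 364% in GFP-Deg, 337% in GFP, 296% in GFPm3, 254% in MTS-GFP, 271% in NES-GFP and 400% in the empty vector, which made it the 1 subunit gene that was highest without GFP. All 7 other subunit genes were highest on an array of slide 2. Of all genes, 9.33% were highest in SS-GFP, 22% in GFP-Deg and 14.5% in GFP.

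OST2 and SWP1 were the subunit genes with the highest deviations in SS-GFP, 0.52 and 0.48. OST2 was at 284% in SS-GFP, 230% in GFP-Deg, 228% in GFP, 136% in GFPm3, 162% in MTS-GFP, 153% in NES-GFP and 233% in the empty vector. SWP1 was at 359% in SS-GFP, 321% in GFP-Deg, 306% in GFP, 207% in GFPm3, 191% in MTS-GFP, 195% in NES-GFP and 280% in the empty vector. For both, the 3 GFP arrays of slide 1 were the lowest of the 7. OST3 and OST6 encode alternative subunits with oxidoreductase folds, and OST3 had the lowest deviation of the group in SS-GFP, -0.01. OST3 was at 190% in SS-GFP, 251% in GFP-Deg, 205% in GFP, 160% in GFPm3, 156% in MTS-GFP, 165% in NES-GFP and 226% in the empty vector. OST6 ran from 31.5% in MTS-GFP to 58.5% in GFP-Deg, and OST1, the subunit gene with the widest span (1.17 on the log2 scale), from 76.7% in MTS-GFP to 173% in GFP-Deg.

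The genes of the N-glycan precursor were also highest as a group in GFP-Deg (median deviation 0.29), with medians of 0.07 in SS-GFP, 0.14 in GFP, -0.19 in GFPm3, -0.36 in MTS-GFP, -0.20 in NES-GFP and 0.14 in the empty vector. ALG7 encodes the enzyme that starts the pathway by adding N-acetylglucosamine phosphate to dolichol phosphate. It was at 140% in SS-GFP, 159% in GFP-Deg, 130% in GFP, 78.9% in GFPm3, 69.3% in MTS-GFP, 79.5% in NES-GFP and 126% in the empty vector. The 3 GFP arrays of slide 1 were below the other 4.

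Alg13 and Alg14 together add the second N-acetylglucosamine, Alg13 as the catalytic subunit and Alg14 as its membrane anchor. ALG13 was at 78.4% in SS-GFP, 147% in GFP-Deg, 72.7% in GFP, 73.6% in GFPm3, 82.4% in MTS-GFP, 80.3% in NES-GFP and 90.9% in the empty vector. It thus stood out in GFP-Deg alone (deviation 0.76), and the other 6 arrays lay between 72.7% and 90.9%. ALG14 had another order, with its highest value in GFP at 73.6% and its lowest in MTS-GFP at 42.2%. ALG1, which encodes the enzyme for the first mannose, had the narrowest span of the 41 genes, from 39.5% in GFP-Deg to 46.2% in the empty vector (0.23 on the log2 scale).

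Of the lumenal steps, ALG6, whose enzyme adds the first glucose, had the highest deviation of this group in SS-GFP, 0.43. It was at 185% in SS-GFP, 152% in GFP-Deg, 142% in GFP, 109% in GFPm3, 120% in MTS-GFP, 121% in NES-GFP and 149% in the empty vector. ALG8, for the next glucose, was at 24.2% in SS-GFP and was lowest in MTS-GFP at 16.9%. ALG5 makes the dolichol phosphate glucose that Alg6 and Alg8 use, and it spanned from 12.9% in MTS-GFP to 25.3% in GFP-Deg. The lumenal mannosyltransferase genes ALG3, ALG9 and ALG12 had deviations of 0.23, 0.08 and 0.23 in SS-GFP, and ALG9 stayed between 205% and 260% over the 7 arrays.

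The GPI anchor genes included the gene with the largest deviation of the 41. MCD4 encodes the enzyme that adds ethanolamine phosphate to the first mannose of the anchor. MCD4 was at 186% in SS-GFP, 64.3% in GFP-Deg, 60.2% in GFP, 44.7% in GFPm3, 44.0% in MTS-GFP, 41.0% in NES-GFP and 96.1% in the empty vector, with an SD between spots of 0.03 to 0.06 on the log2 scale. SS-GFP was thus far above the other 6 arrays, the empty vector came next, and the 3 GFP arrays of slide 1 were lowest. MCD4 was 2.81-fold above the mean of the 7 arrays in SS-GFP (deviation 1.49), and 0.691% of all genes were over 2-fold higher there. It was 3.10-fold over GFP, 2.90-fold over GFP-Deg and 1.94-fold over the empty vector.

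**Figure D3:**
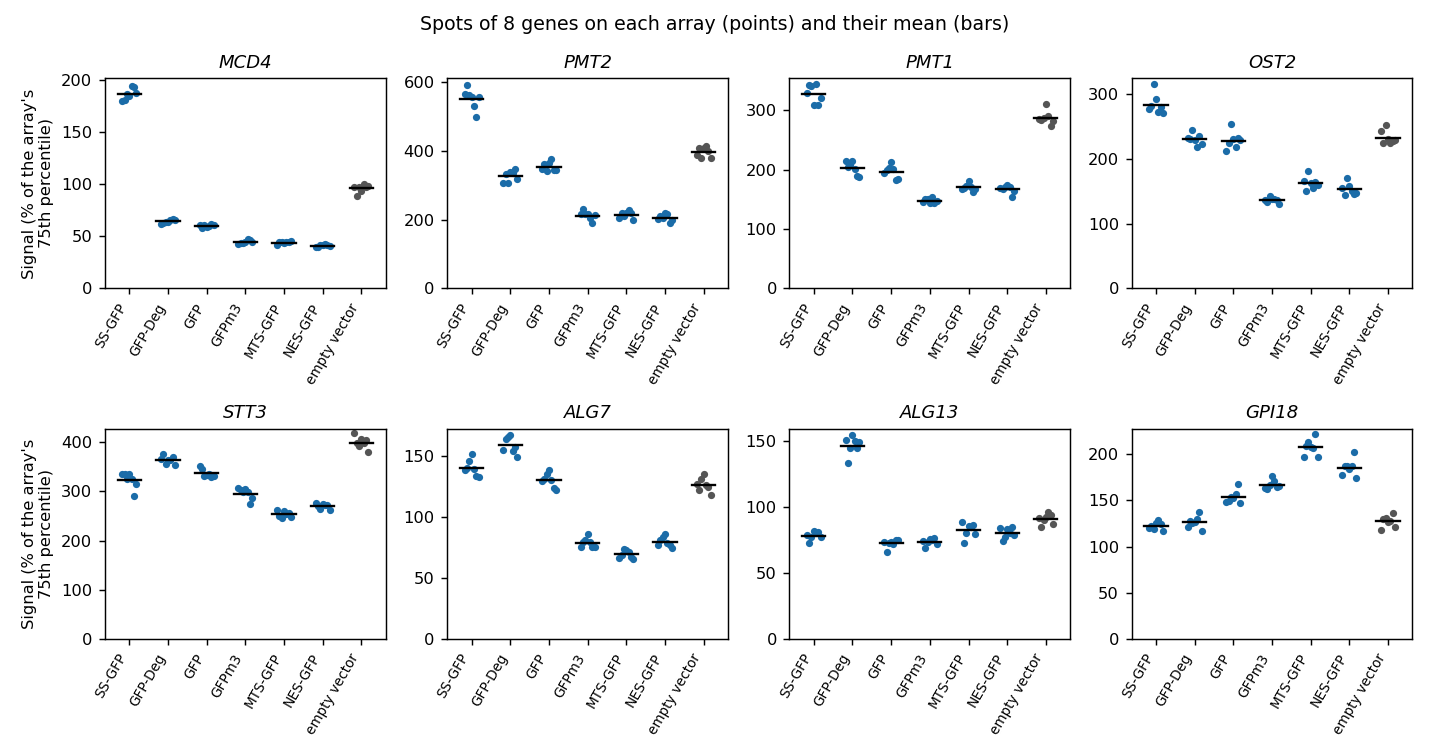
Signal of each spot (points, as a percentage of the 75th percentile of the array) for 8 genes on the 7 arrays, with GFP arrays in blue, the empty vector in grey and the mean of the spots as a black bar. MCD4 reaches 186% in SS-GFP and 96.1% in the empty vector, ALG13 stands out in GFP-Deg at 147%, and GPI18 is highest in MTS-GFP at 208%.

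The other genes for the ethanolamine phosphate steps did not share the pattern of MCD4. GPI13, for the third mannose, was highest in GFP-Deg at 159% and was at 116% in SS-GFP and 108% in the empty vector. LAS21, for the second mannose, was at 53.8% in SS-GFP, 53.7% in GFP-Deg, 53.1% in GFP and 59.0% in the empty vector. GPI11, whose product assists these transfers, was between 52.2% and 55.3% in the same 4 arrays. In the 3 GFP arrays of slide 1, LAS21 and GPI11 were between 35.2% and 42.7%.

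At the start of the GPI pathway, GPI2 encodes a subunit of the complex that transfers N-acetylglucosamine to phosphatidylinositol. GPI2 was at 14.1% in SS-GFP, 15.6% in GFP-Deg, 14.9% in GFP, 8.7% in GFPm3, 9.3% in MTS-GFP, 9.8% in NES-GFP and 9.9% in the empty vector. Here the 3 arrays of slide 2 were high and all 4 arrays of slide 1 low, so that the empty vector stood with its slide. GPI1, for another subunit, stayed between 32.8% and 40.7%. GPI12, for the deacetylase of the next step, had the second highest deviation of the group in SS-GFP, 0.36. It was at 77.8% in SS-GFP, 60.6% in GFP-Deg, 87.1% in GFP, 56.0% in GFPm3, 48.6% in MTS-GFP, 44.5% in NES-GFP and 61.1% in the empty vector.

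Among the mannosyltransferases of the anchor, GPI18, for the second mannose, ran opposite to most of the 41 genes. GPI18 was at 122% in SS-GFP, 126% in GFP-Deg, 154% in GFP, 167% in GFPm3, 208% in MTS-GFP, 186% in NES-GFP and 127% in the empty vector. It had the lowest deviation of the 41 genes in SS-GFP, -0.32, and the highest in MTS-GFP, 0.44. GPI14 and GPI10, for the first and the third mannose, had deviations of 0.22 and -0.08 in SS-GFP and of -0.25 and -0.23 in MTS-GFP.

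The transamidase genes were low in MTS-GFP, the lowest of the 7 arrays for all 5 of them. That array was also the lowest for 63.4% of the 41 genes and 25.1% of all genes. For GPI16 this was nearly a tie, with 195.1% in MTS-GFP, 195.2% in GFPm3 and 196.3% in NES-GFP. GPI8 encodes the catalytic subunit, and it was at 24.5% in SS-GFP, 23.7% in GFP-Deg, 25.0% in GFP, 19.6% in GFPm3, 16.1% in MTS-GFP, 17.8% in NES-GFP and 23.7% in the empty vector. The other subunit genes GAA1, GPI16, GPI17 and GAB1 had deviations between 0.01 and 0.28 in SS-GFP and between -0.18 and -0.28 in MTS-GFP.

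Within slide 2, 37 of the 41 genes were within 1.5-fold of GFP in SS-GFP and 37 within 1.5-fold of GFP-Deg. The median size of the difference, in either direction, was 0.16 and 0.23 on the log2 scale. Most of all genes were within 1.5-fold of GFP-Deg too, since 4.92% were over 1.5-fold higher in SS-GFP and 10.2% over 1.5-fold lower. The 41 genes went both ways. Their median difference was -0.03 for SS-GFP minus GFP, with 18 genes higher in SS-GFP (39.5% of all genes). It was -0.01 for SS-GFP minus GFP-Deg, with 20 higher (40.9% of all genes). The median over all genes was -0.07 for SS-GFP minus GFP. MCD4 rose over 2-fold in both comparisons (0.948% and 1.27% of all genes), which share the SS-GFP array. PMT1 was 1.66-fold over GFP and 1.62-fold over GFP-Deg, PMT2 was 1.56-fold and 1.69-fold, and PMT3 was 1.70-fold and 1.23-fold. MCD4, PMT1, PMT2 and PMT3 made up the 4 genes that were over 1.5-fold higher in SS-GFP than in GFP (2.92% of all genes), and the first 3 of them were also over 1.5-fold higher than in GFP-Deg (4.92% of all genes). ALG13 was the 1 gene over 1.5-fold lower in SS-GFP than in GFP-Deg (10.2% of all genes), at -0.91 on the log2 scale.

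By group, SS-GFP minus GFP had a median of 0.40 for the O-mannosyltransferases, -0.04 for the oligosaccharyltransferase, 0.03 for the N-glycan precursor and -0.06 for the GPI anchor genes. SS-GFP minus GFP-Deg had medians of 0.23, -0.22, -0.19 and 0.05 for the same groups in that order. Against the mean of their own slide, the 41 genes had a median of -0.02 in SS-GFP, against 0.18 with the mean of the 7 arrays, and the deviation of MCD4 there was 1.06.

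GFP-Deg and GFP shared promoter, host and slide and differed in the degron. For GFP-Deg minus GFP the 41 genes had a median of 0.03, with 25 higher in GFP-Deg (49.7% of all genes). Of the 8 oligosaccharyltransferase genes 7 were higher in GFP-Deg, with a median of 0.18 and a highest value of 0.32 for OST1. ALG13 was the 1 gene over 2-fold higher (1.53% of all genes), at 1.01 on the log2 scale, just past the threshold. GPI12 had the lowest difference, -0.52.

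Within slide 1, the 3 GFP arrays can be set against the empty vector on the same slide. The median difference over the 41 genes was -0.34 for GFPm3, -0.43 for MTS-GFP and -0.35 for NES-GFP, where all genes had medians of 0.06, -0.03 and -0.02. The number of genes lower than in the empty vector was 38 for GFPm3 (44.1% of all genes), 40 for MTS-GFP (52.8% of all genes) and 40 for NES-GFP (52.6% of all genes). These 3 comparisons share 1 empty vector array, which has no repeat. Few of the differences passed 2-fold. MCD4 fell in GFPm3 (-1.10), MTS-GFP (-1.12) and NES-GFP (-1.23), and PMT4 fell in MTS-GFP (-1.01). Over 2-fold lower were 1.72% of all genes in GFPm3, 2.46% in MTS-GFP and 1.14% in NES-GFP.

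At 1.5-fold, 7 genes were lower in GFPm3 (6.91% of all genes), 14 in MTS-GFP (12.1% of all genes) and 6 in NES-GFP (6.65% of all genes). In GFPm3, 4 of the 7 were O-mannosyltransferase genes. In MTS-GFP the 14 were 3 O-mannosyltransferase, 4 oligosaccharyltransferase, 5 N-glycan precursor and 2 GPI anchor genes. GPI18 was the 1 gene over 1.5-fold higher, in MTS-GFP at 0.71 (10.8% of all genes). The 3 arrays also differ in promoter, since NES-GFP used HXT7.

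MTS-GFP and GFPm3 shared promoter and slide. MTS-GFP minus GFPm3 had a median of -0.12 over the 41 genes, with 30 lower in MTS-GFP (59.9% of all genes). The median deviation over all genes was also lower in MTS-GFP, at -0.05 against 0.04 in GFPm3. Among the 41 genes the lowest difference was -0.67 for ALG5 and the highest 0.46 for PMT3. Of the oligosaccharyltransferase genes 7 of 8 were lower in MTS-GFP, while 4 of the 6 O-mannosyltransferase genes were higher.

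**Figure D4:**
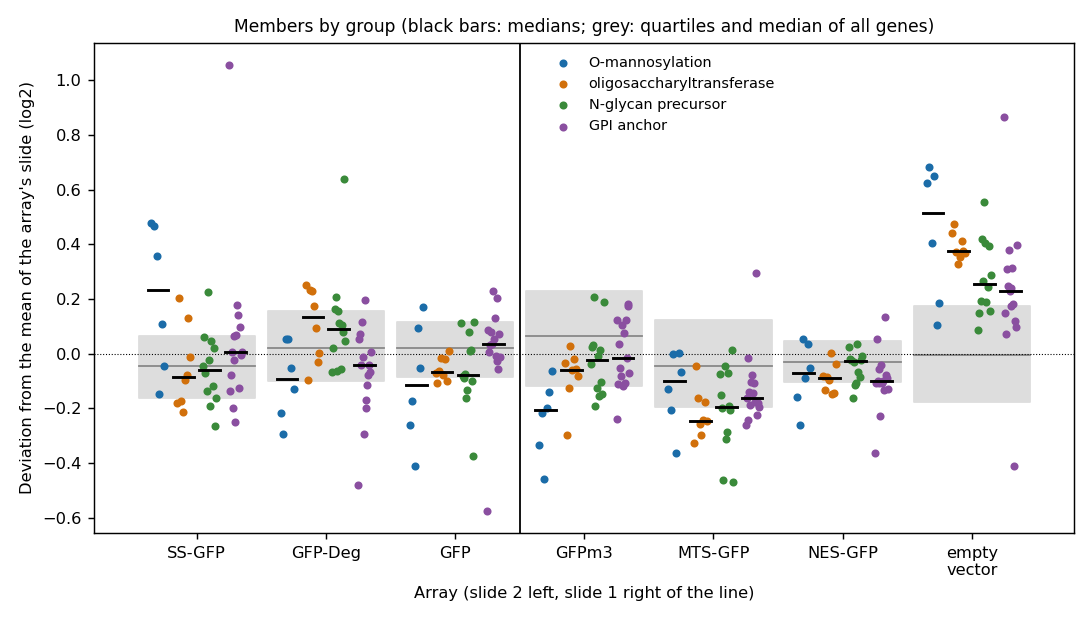
Deviation from the mean of the slide (log2, vertical axis) of each gene on each array (horizontal axis), in colour by group, with group medians as black bars and the quartiles and median of all genes in grey. On slide 2 the medians over the 41 genes lie between -0.02 and 0.01, and on slide 1 the empty vector is at 0.31 and MTS-GFP at -0.18.

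Across slides, SS-GFP, GFP-Deg and GFP lay close to the empty vector as a group. The median difference over the 41 genes was -0.01 in SS-GFP, with 20 genes higher (49.1% of all genes). It was 0.00 in both GFP-Deg (55.3% of all genes higher) and GFP (53.6% of all genes higher), with 21 genes higher in each. None of the 41 genes rose or fell over 2-fold in these 3 comparisons, and MCD4 in SS-GFP came nearest, at 0.96. Of all genes 3.36% rose and 1.29% fell in SS-GFP, 5.9% rose and 1.51% fell in GFP-Deg, and 4.48% rose and 1.17% fell in GFP. At 1.5-fold MCD4 was the 1 gene higher in SS-GFP (8.5% of all genes). The O-mannosyltransferase genes had a median of -0.27 in GFP-Deg and -0.14 in GFP, and the oligosaccharyltransferase genes 0.22 and 0.03. These comparisons share the empty vector array with those of slide 1, and slide cannot be told apart from construct in them.

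The array with the highest and the lowest value was also counted for each gene, however small the margin to the next array. SS-GFP was highest for 11 of the 41 genes (9.33% of all genes), GFP-Deg for 14 (22% of all genes), GFP for 8 (14.5% of all genes), GFPm3 for 1 (26.6% of all genes), MTS-GFP for 1 (16.7% of all genes), NES-GFP for none (3.49% of all genes) and the empty vector for 6 (7.33% of all genes). MTS-GFP was lowest for 26 of the 41 (25.1% of all genes), among them 7 of the 8 oligosaccharyltransferase and 10 of the 15 GPI anchor genes. GFPm3 was lowest for 8 (15.6% of all genes), and the empty vector for none (10.7% of all genes). GFP-Deg was highest for 7 of the 12 N-glycan precursor genes.

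**Figure D5:**
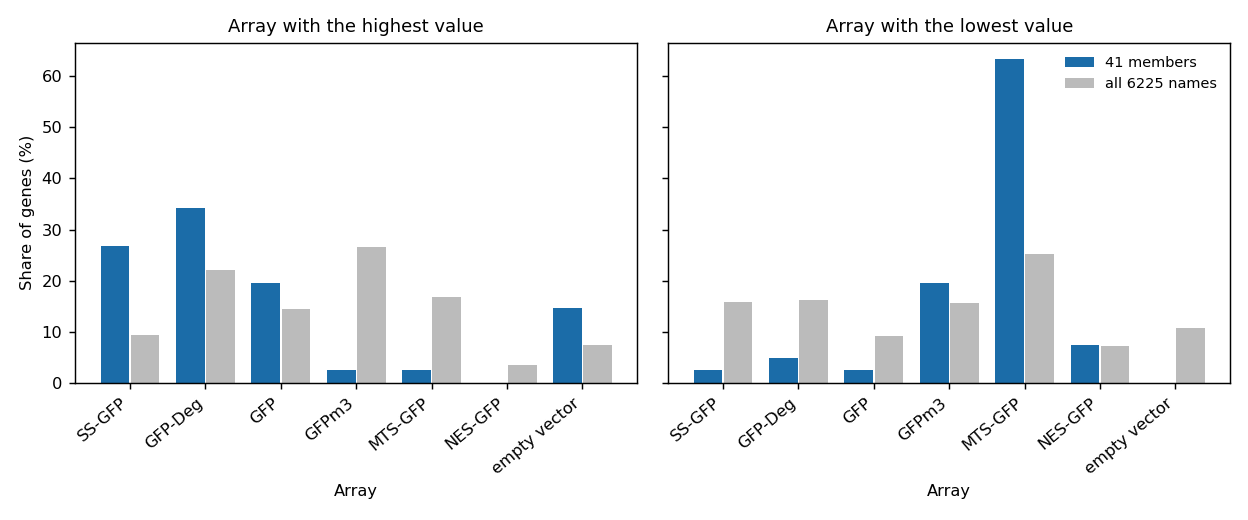
Share of genes (%, vertical axis) whose highest value (left) or lowest value (right) lay on each array (horizontal axis), for the 41 genes in blue and all 6225 names in grey. MTS-GFP is the lowest array for 63.4% of the 41 genes and 25.1% of all genes.

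Other genes that serve the same 3 modifications were examined in SS-GFP as lists. Of 17 genes for the supply of dolichol and sugar nucleotides, none rose over 2-fold and 4 were over 1.5-fold above the mean of the 7 arrays (0.691% and 3.36% of all genes), with a median deviation of 0.36. The highest were PMI40 (0.91) and SEC53 (0.85), which lead from hexose phosphate to GDP-mannose, and DPM1 (0.69), the synthase of dolichol phosphate mannose. Against the empty vector these 3 were at 0.54, 0.54 and 0.62, and in MTS-GFP their deviations were -0.75, -0.54 and -0.34. SRT1, a minor cis-prenyltransferase for dolichol, had the lowest deviation of the list in SS-GFP, -0.41, and was at 0.88 in GFPm3.

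Of 11 other genes of the 3 pathways that were found, 8 were above the mean of the 7 arrays in SS-GFP (46.9% of all genes) and 1 was over 1.5-fold above it (3.36% of all genes), with a median of 0.09. GWT1, which encodes the inositol acyltransferase of the GPI pathway, was the highest at 0.76. Its deviations in the other arrays were -0.05 in GFP-Deg, -0.01 in GFP, -0.48 in GFPm3, -0.37 in MTS-GFP, -0.29 in NES-GFP and 0.44 in the empty vector, so that, as for MCD4, SS-GFP was highest and the empty vector next. PGA1 (0.50) and GPI19 (0.44) were the next in SS-GFP. SPT14, the catalytic subunit of the first GPI enzyme, was the lowest at -0.19.

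Known targets of the unfolded protein response, mainly for folding or degrading proteins of the ER, had higher deviations in SS-GFP than most of the 41 genes. Of 17 such genes 5 rose over 2-fold (0.691% of all genes) and 11 were over 1.5-fold above the mean of the 7 arrays (3.36% of all genes), with a median of 0.78. SIL1 and LHS1, which encode nucleotide exchange factors of the ER chaperone Kar2, were at 1.37 and 1.26, MPD1, a disulfide isomerase, at 1.34, and KAR2 itself at 1.17. YOS9, a lectin of ER degradation, was the lowest at -0.10. Against the empty vector, on the other slide, SIL1 was at 1.12, MPD1 at 1.11 and LHS1 at 1.01. KAR2 was at 0.94 there, short of 2-fold, and YOS9 at -0.17. Slide cannot be told apart from construct in that comparison. Of the 41 genes, MCD4 alone had a deviation in SS-GFP as high as those of SIL1, MPD1, LHS1 and KAR2.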

How the data were processed

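RNA from 7 cultures was labelled with Cy3 and hybridised to single-colour Agilent yeast arrays with 43792 gene spots. The deposited intensity values are the processed signals that the authors obtained with Feature Extraction 10.10.1.1, after its background correction and before any scaling between arrays, and the deposited value table holds the same number for each of the 45209 spots and control features. Control spots and outlier spots (252 to 373 per array) were left out, log2 signals were taken, the 75th percentile of each array (3719 to 5626 in brightness) was subtracted, and values were averaged over the spots of a probe, then over the probes of a name, giving 6256 probes and 6225 names, of which 5737 matched a locus tag. ALG3 had more than 1 probe and the other 40 genes had 1. The number of arrays limits the precision, since each construct had 1. Values were compared by fold with Python 3.11.15, numpy 2.4.6 and pandas 2.3.3, and background correction was repeated with limma 3.58.1 in R 4.3.3. The scripts were checked on simulated data.

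The genes, the lists and the thresholds were chosen with earlier results of these data known. All 41 genes could be named. Levels on all 7 arrays were given for each gene past 2-fold, for the 2 highest and the lowest of each group in SS-GFP, and for STT3, GPI8, ALG7 and GPI2. Genes of other lists were named only if among the 3 highest or the lowest in SS-GFP, apart from KAR2. Percentages of all genes are shares of the 6225 names. Alternatives were quantile and loess normalization, normexp background correction (offset 50), no scaling, only genes well above background, the median of spots, other comparators, other folds, and each array left out of the mean, the last added after the data were seen. ERI1 had no probe under its systematic name. The authors' scaling between arrays was not given in enough detail to repeat it.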

Additional observations from a re-analysis of the deposited data

How the results depend on the processing

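No paired analysis was possible because each construct had 1 array. Without scaling between arrays the median of all genes moved to -0.27 in GFP, -0.15 in GFP-Deg and 0.27 in GFPm3 and NES-GFP, and that of the 41 genes to -0.120 in GFP, 0.00696 in GFP-Deg, 0.0456 in GFPm3 and 0.0779 in NES-GFP. Relative to the median of all genes, the 41 genes were at 0.15 in GFP, 0.16 in GFP-Deg, -0.22 in GFPm3 and -0.19 in NES-GFP. These values are the same with scaling by construction, since it subtracts the same value from every gene of an array. Measured from the median array, the oligosaccharyltransferase median in SS-GFP was 0.

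With the empty vector as the comparator, 2 genes were over 2-fold in at least 1 array (MCD4 and PMT4). None were over 2-fold higher in SS-GFP (3.36% of all genes). MCD4 and PMT4 fell on slide 1, where 1.72% of all genes were over 2-fold lower in GFPm3, 2.46% in MTS-GFP and 1.14% in NES-GFP. The medians of the 41 genes were then -0.00802 in SS-GFP, 0.00198 in GFP-Deg, 0.00141 in GFP, -0.345 in GFPm3, -0.434 in MTS-GFP and -0.351 in NES-GFP. In SS-GFP the group medians were 0.0127 for the O-mannosyltransferases, -0.0298 for the oligosaccharyltransferase, -0.0817 for the N-glycan precursor and 0.0497 for the GPI anchor genes. In SS-GFP 13 of the 41 genes changed sign, 7 of them from a deviation of at most 0.0831, within the pooled spot SD of 0.11. The other 6 were PMT3 (-0.0157), PMT4 (-0.117), OST1 (-0.0348), OST6 (-0.0248), ALG12 (-0.00802) and LAS21 (-0.134). The pooled SD is that of single spots over all probes, so it is not the spread of a deviation between arrays.

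With the mean of the same slide as the comparator, the medians of the 41 genes were -0.0231 in SS-GFP, 0.00546 in GFP-Deg, -0.0166 in GFP, -0.0599 in GFPm3, -0.176 in MTS-GFP, -0.0846 in NES-GFP and 0.310 in the empty vector. In SS-GFP the group medians were -0.0859 for the oligosaccharyltransferase, -0.0587 for the N-glycan precursor and 0.00700 for the GPI anchor genes. Among the O-mannosyltransferases, PMT1 was at 0.476, PMT2 at 0.466, PMT3 at 0.357, PMT5 at 0.108, PMT6 at -0.0436 and PMT4 at -0.147. In SS-GFP 15 of the 41 genes changed sign, 7 of them from a deviation of at most 0.0948, within that SD, and the other 8 were PMT4 (-0.147), OST1 (-0.182), OST6 (-0.0947), WBP1 (-0.0136), ALG3 (-0.0716), ALG7 (-0.0237), GPI2 (-0.0778) and GPI11 (-0.0231). Sign changes were not counted over all genes, either here or with the empty vector as the comparator. The cause of these differences was not tested.

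With each array left out of the mean in turn, both counts of genes over 2-fold ran from 1 to 2, and the second gene was PMT2 at 1.01 with SS-GFP itself left out. At 1.5-fold the counts were 8 in at least 1 array and 3 higher in SS-GFP, and at 3-fold both were 0. The deviation of MCD4 in SS-GFP lay between 0.96, against the empty vector, and 1.74, with SS-GFP left out of the mean, over all settings run. Quantile or loess normalization, normexp, the median of spots and the filter on dim genes changed the sign of no median and neither count.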

Other observations

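Genes for steps that follow those described above were read in SS-GFP, where the median over all genes was -0.02 and 46.9% of all genes were above the mean of the 7 arrays. The 9 genes for trimming of N-glycans and their lectins had a median deviation of -0.09 from the mean of the 7 arrays, with 4 above it. The 6 genes for remodelling of the GPI anchor had a median of 0.08, with 5 above. The 14 genes that serve mannose addition in the Golgi had a median of 0.13, with 8 above. Over 1.5-fold was 1 of them, KTR1 at 0.62 (3.36% of all genes). MNN1, for the terminal mannoses added in the Golgi, was the lowest at -0.58 in SS-GFP, and was at 0.76 in GFP-Deg and 0.07 in the empty vector.

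In MTS-GFP 13 of these 14 Golgi genes and all 6 remodelling genes were below the mean of the 7 arrays (55.9% of all genes). The medians were -0.28 and -0.27, against -0.05 for all genes. In the empty vector 12 of the 14 and all 6 were above it (48.6% of all genes), with medians of 0.09 and 0.10.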
